A study of Mus musculus with 6 samples.

Results

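The matrix metalloproteinase (MMP) genes, their tissue inhibitors (TIMPs), the ADAM and ADAMTS proteases and the ADAMTS-like proteins were described in bulk RNA sequencing of mouse liver. They were taken as every gene symbol of the 6 count tables that consists of Mmp, Timp, Adam, Adamts or Adamtsl, a number and at most 1 letter, which gave 84 of 24411 symbols: 23 Mmp, 4 Timp, 33 Adam, 19 Adamts and 5 Adamtsl genes. The libraries came from Cyr61 KO livers (3 libraries, genotype labelled Cyr61KO) and from Control livers (3 libraries). Per the labels all 6 came from male Cyr61fl/fl mice aged 24 weeks and fed for 12 weeks on a diet that produces non-alcoholic steatohepatitis (NASH), and how or in which cells Cyr61 was removed is not given in the sources used here. Whether every library is from its own mouse is not stated either, and the p-values therefore describe only how much these libraries vary.

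MMPs are zinc-dependent proteases that cut collagens, elastin and other matrix proteins, and TIMPs bind and block their active site. ADAMs are membrane-anchored relatives, several of which release the outer part of cell-surface proteins such as cytokines and growth factors, while ADAMTS enzymes are secreted and cut proteoglycans, procollagens and von Willebrand factor. ADAMTS-like proteins carry the ancillary repeats without a protease domain and sit on microfibrils of the matrix. In fibrotic liver, the balance of these enzymes and inhibitors is known to shape how much scar collagen is laid down and removed.

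The 6 libraries held 21032878 to 40377742 gene counts. Cyr61, which encodes the secreted matricellular protein CCN1, was at 3.77, 2.66 and 3.14 CPM (read counts scaled to library size with TMM normalisation) in Cyr61 KO replicates 1, 2 and 3, against 15.6, 32.4 and 27.7 CPM in Control replicates 1, 2 and 3. Its log2 fold change was -2.98 ± 0.32 (SE, edgeR adjusted p = 0.0103), and the adjusted p was 0.0615 without Cyr61 KO replicate 1. Hepatocyte markers summed to between 106400 and 130400 CPM in Cyr61 KO libraries and between 42440 and 101000 CPM in Control libraries, and none of the 8 was at 0. Control replicate 2 differed from the rest: 50.9% of its reads fell in genes, against 82.8% to 87.6% in the others, and it had the lowest hepatocyte sum and a sum of 1172 CPM for markers of pancreas and gut epithelium against 10.8 to 14.4 CPM in the others. Of the 45 members tested, 30 were highest in that library, against 34.9% of all genes tested. Fewer cells of a type and less RNA per cell cannot be told apart in such libraries.

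Of the 84 members, 45 passed the filter on low counts and were tested. In Cyr61 KO livers 5 of the 45 were called lower at an edgeR adjusted p below 0.05 (11.1%), against 2.37% of all 13563 genes tested and 3.44% called in either direction. The called members were Timp1, Mmp2, Adam8, Adamts2 and Adamtsl2, which belong to 5 different families. By edgeR 0 members were called higher, where 1.07% of all genes were, 3 had an unadjusted p below 0.05 in that direction, against 11.3% of all genes, and DESeq2 also called 0. At an unadjusted p below 0.05, 20 of the 45 were lower, against 16.1% of all genes tested. The Cyr61 KO and Control values did not overlap in 21 members that were lower, against a background of 17.9%, and in 4 that were higher, against 17.3%. The median log2 fold change of the tested members was -0.92, and that of all genes tested was -0.03. Of the 45, 7 met the count minimum in all 3 Control libraries but not in all 3 Cyr61 KO libraries, so that only their Control level brought them into the test, and 1 met it in the Cyr61 KO libraries alone. Without Control replicate 2 the median was -0.54 and 1 member was called, and without Control replicate 1 it was -1.04, also with 1 call. Without Cyr61 KO replicate 1 or 2, edgeR called 0 members, with 14 and 15 lower at an unadjusted p below 0.05, at medians of -0.78 and -0.80. The share of all genes at that unadjusted threshold was not computed when libraries were left out. Of all genes, 0.0215% and 0.086% were called lower in those fits, and 1.22% and 0.949% without Control replicates 2 and 1. The members called lower numbered 9 without Cyr61 KO replicate 3 and 11 without Control replicate 3, fits in which 4.35% and 5.17% of all genes were called lower.

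**Figure D1:**
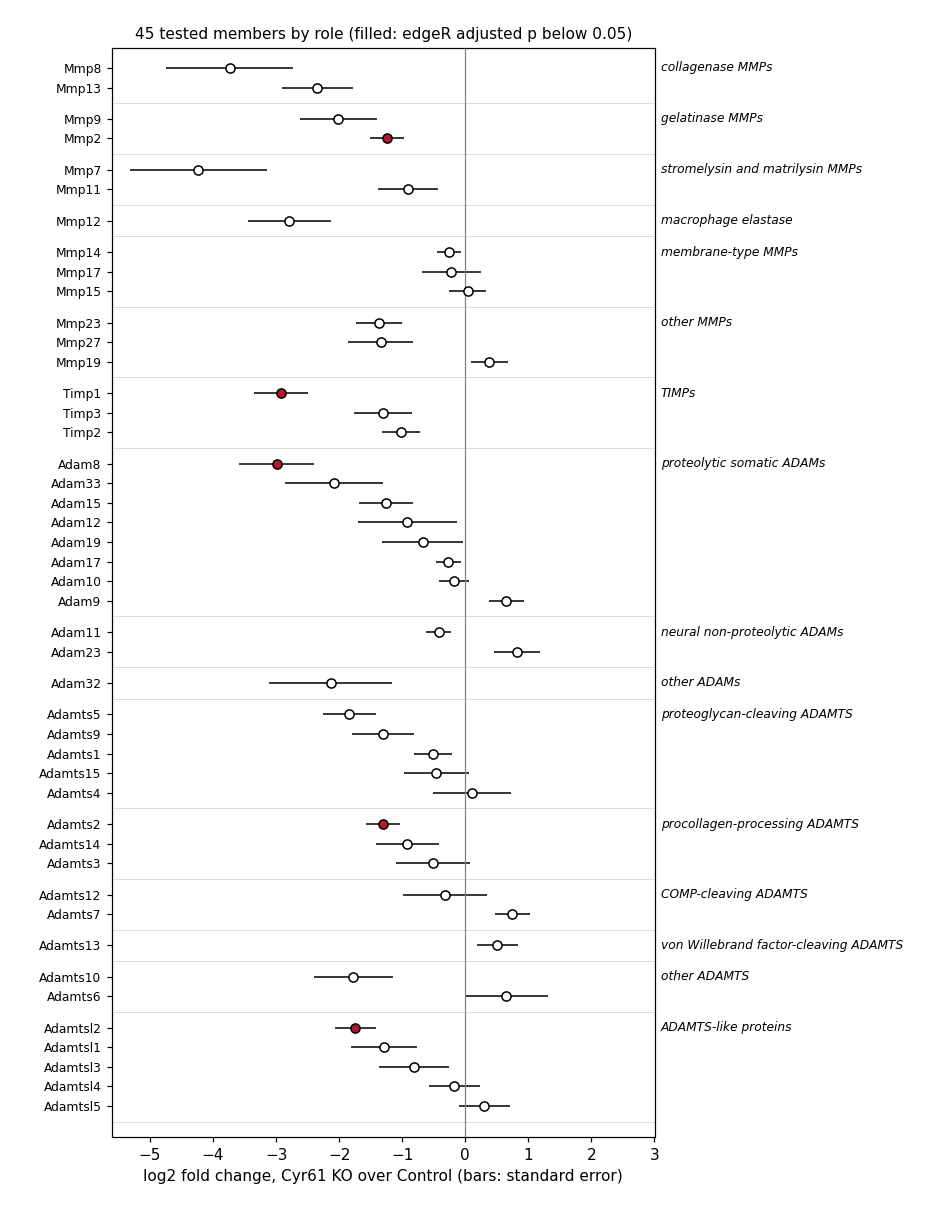
Log2 fold change of Cyr61 KO over Control on the horizontal axis for each of the 45 tested members, grouped by role, with bars of 1 standard error and filled points for the 5 members called by edgeR. Values run from -4.23 for Mmp7 to 0.82 for Adam23, and 36 of the 45 are negative.

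Among the inhibitors, Timp1, the inducible inhibitor that activated stellate cells and macrophages release in fibrotic liver, fell in Cyr61 KO livers. The gene lies at chrX:20870166-20874735 on GRCm38, within the bounds of Syn1, which is transcribed from the opposite strand, and the counts used here are strand-specific. Timp1 had 0.534, 0.816 and 1.06 CPM in replicates 1 to 3 of the Cyr61 KO livers, against 5.33, 8.57 and 4.58 CPM in Control replicates 1 to 3. Every Cyr61 KO library was thus below every Control library, and the means were 0.805 ± 0.265 and 6.16 ± 2.12 CPM (SD, n = 3 each). The log2 fold change was -2.93 ± 0.43 (SE, edgeR adjusted p = 0.0195). It kept its call without Control replicate 2, the library with the highest value, at -2.59 (edgeR adjusted p = 0.0303), and did not pass without Cyr61 KO replicate 1 or 2 (0.0697 and 0.102).

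Timp2, a constitutive inhibitor that also helps MMP14 to activate pro-MMP2, was at 20.3, 32.0 and 37.9 CPM in the Cyr61 KO libraries, against 54.2, 82.7 and 45.6 CPM in the Control libraries. Its groups did not overlap, and its log2 fold change of -1.02 ± 0.31 did not pass (edgeR adjusted p = 0.0881). Timp3, which binds to the matrix and also inhibits ADAM17, was at 19.0, 23.7 and 27.1 CPM in Cyr61 KO livers, against 31.7, 107.7 and 33.1 CPM in Control livers. Control replicate 2 held more than the other Control libraries together, and the log2 fold change of -1.31 ± 0.46 (edgeR adjusted p = 0.117) was -0.45 without it. Timp4 had 0 reads in the Cyr61 KO libraries and 2 in the Control libraries and was not tested.

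Per kilobase of transcript, Timp1 held a smaller share of the inhibitor transcripts in every Cyr61 KO library than in any Control library, a description with no test. Timp1 made up 6.0%, 6.34% and 7.03% of the summed TIMP level in the Cyr61 KO libraries, against 22.1%, 17.7% and 21.2% in the Control libraries. Timp2 was the leading TIMP in every library but Control replicate 2, where Timp3 led with 41.6%. The summed TIMP level was 13.9 ± 3.58 RPKM (normalised CPM per kilobase of transcript) in Cyr61 KO livers and 35.6 ± 16.7 RPKM in Control livers (SD, n = 3 each). The groups did not overlap, and the exact two-sided permutation p was 0.1, the smallest that 3 libraries against 3 can give.

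**Figure D2:**
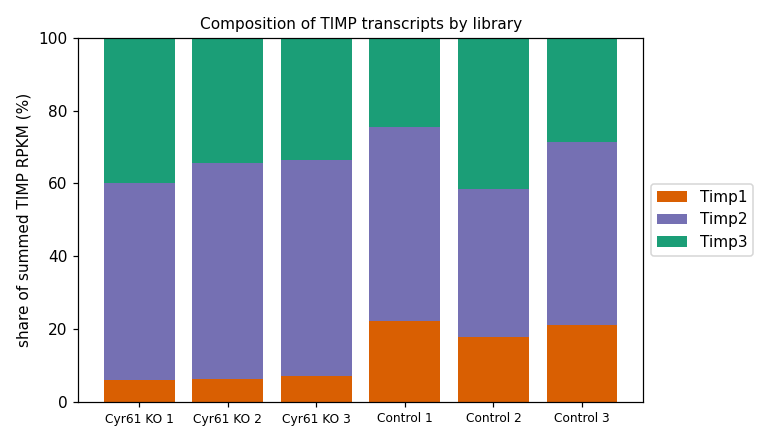
Share of the summed TIMP level per kilobase (RPKM, in percent on the vertical axis) held by Timp1, Timp2 and Timp3 in each library, with the 3 Cyr61 KO libraries left of the 3 Control libraries. The Timp1 share lies between 6.0% and 7.03% in the Cyr61 KO libraries and between 17.7% and 22.1% in the Control libraries.

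Of the secreted collagenases, gelatinases, stromelysins, matrilysin and macrophage elastase, Mmp2 was the only one called by edgeR. DESeq2 also called Mmp7, Mmp8, Mmp9, Mmp12 and Mmp13 lower. It called 7.93% of all genes it tested lower, against 2.37% by edgeR. MMP2, the gelatinase A of stellate cells and fibroblasts, cuts denatured collagen and basement membrane collagen. Its gene lies at chr8:92827291-92853420. Mmp2 was at 8.49, 9.998 and 15.1 CPM in the Cyr61 KO libraries, against 31.5, 26.4 and 21.7 CPM in the Control libraries. The groups did not overlap, and the log2 fold change was -1.24 ± 0.27 (SE, edgeR adjusted p = 0.0445). Mmp9, the gelatinase B of neutrophils and macrophages, was lower in level, at 0.475, 0.461 and 1.06 CPM in Cyr61 KO livers, against 1.40, 4.78 and 1.98 CPM in Control livers. Its log2 fold change of -2.01 ± 0.61 did not pass (edgeR adjusted p = 0.0889) and was -1.30 without Control replicate 2.

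The other secreted MMPs with reads lie mostly in 1 cluster of 10 Mmp genes at chr9:7272514-7699585, in the order Mmp13, Mmp12, Mmp1b, Mmp3, Mmp1a, Mmp10, Mmp8, Mmp27, Mmp20 and Mmp7. All 5 tested genes of the cluster had negative log2 fold changes with unadjusted p below 0.05, against 16.1% of all genes tested. Their groups did not overlap, against 17.9% of all genes that were lower without overlap. None passed the adjusted threshold by edgeR, and DESeq2 called 4 of them lower. Mmp7 met the count minimum in 2 and Mmp8 in 0 of the 3 Cyr61 KO libraries, so both were tested through their Control level. Their sign, p and lack of overlap therefore say less than those of Mmp12, Mmp13 and Mmp27, which met it in all 6. Mmp12, the macrophage elastase, was at 2.29, 3.08 and 15.1 CPM in the Cyr61 KO libraries, against 50.8, 57.9 and 33.6 CPM in the Control libraries. Cyr61 KO replicate 3 lay between the other Cyr61 KO libraries and the lowest Control library. The log2 fold change was -2.79 ± 0.66 (edgeR adjusted p = 0.0532), and -4.13 when Cyr61 KO replicate 3 was left out (adjusted p = 0.00211). Mmp13, the main interstitial collagenase of rodents, was at 0.772, 0.319 and 1.68 CPM in Cyr61 KO livers, against 5.19, 5.37 and 3.68 CPM in Control livers. Its log2 fold change was -2.34 ± 0.57 (edgeR adjusted p = 0.0577); with Cyr61 KO replicate 3 left out the value was -3.09 and passed (0.0214).

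Mmp7, matrilysin, is made by injured epithelium, bile ducts included. It was at 0.534, 0.177 and 1.74 CPM in Cyr61 KO livers, against 4.91, 38.9 and 3.34 CPM in Control livers. Control replicate 2 was far above the other Control libraries: the log2 fold change was -4.23 ± 1.09 (edgeR adjusted p = 0.0659) with that library and -2.29 (0.136) without it. Cholangiocyte markers summed to 84.3 to 166 CPM in Cyr61 KO livers, and to 244.5 and 284 CPM in Control replicates 3 and 1 and 1488 CPM in Control replicate 2. Of these 7 markers edgeR called 0, and 6 were lower at an unadjusted p below 0.05, against 16.1% of all genes tested. DESeq2 called 4 of them lower, against 7.93% of all genes it tested. The part of cholangiocytes in the Mmp7 values was not tested. Mmp8, the collagenase of neutrophils, had 0, 0 and 5 reads in the Cyr61 KO libraries, against 22, 27 and 19 reads in the Control libraries (edgeR adjusted p = 0.0741). Mmp27 was at 1.07, 0.426 and 1.32 CPM in Cyr61 KO livers, against 3.03, 2.55 and 1.61 CPM in Control livers (log2 fold change -1.34 ± 0.52, edgeR adjusted p = 0.142). Outside the cluster, Mmp11, stromelysin 3 of stromal cells, was at -0.91 ± 0.48 (edgeR adjusted p = 0.243).

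**Figure D3:**
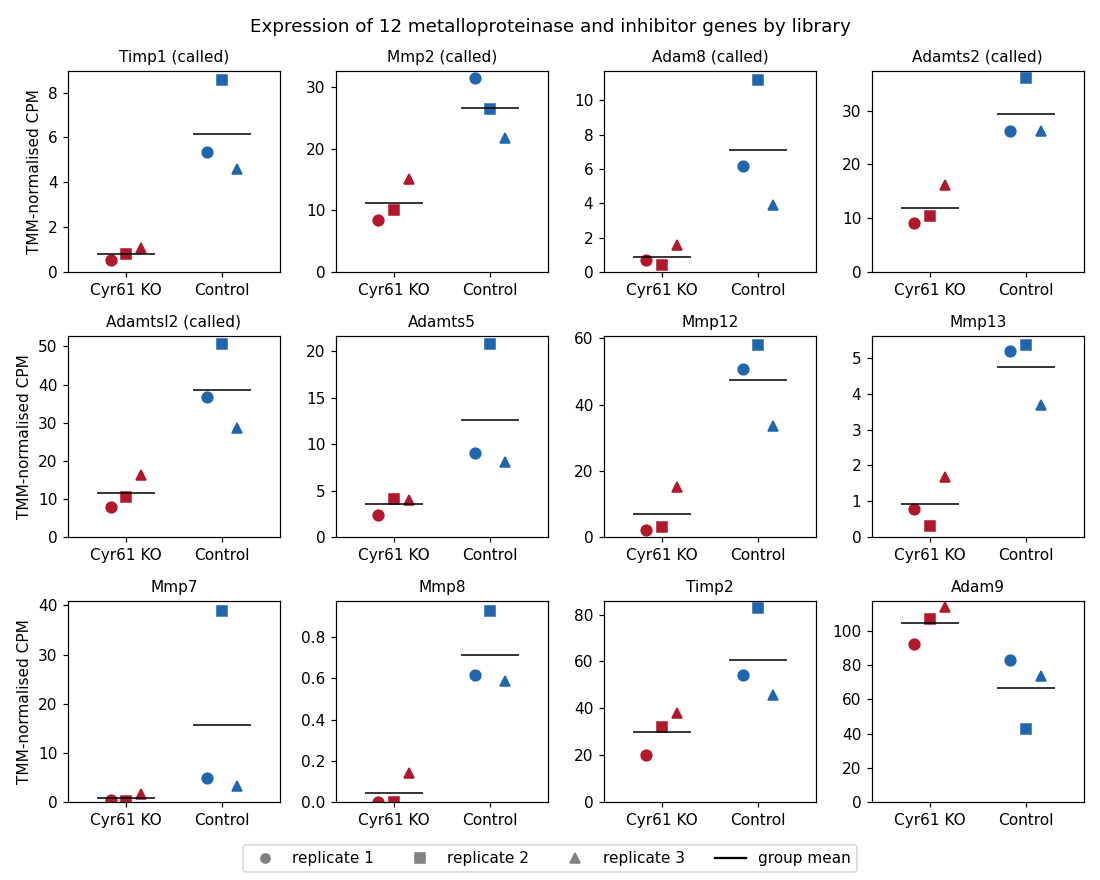
TMM-normalised CPM of 12 members in each library, with the 3 Cyr61 KO libraries left of the 3 Control libraries, a symbol for each replicate number and a line at the group mean. The 12 were picked by hand and include no member whose groups overlap. Of the 45 tested members 21 were lower without overlap, against 17.9% of all genes tested, and 20 overlapped. In 11 of the 12 panels every Cyr61 KO library is below every Control library, and in the Adam9 panel every Cyr61 KO library is above. Control replicate 2 is the highest of all libraries in most panels.

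The start regions of the cluster were searched because its tested members had log2 fold changes of the same sign while levels in the cluster differed widely. Of these tested members, Mmp7 and Mmp8 entered the test through their Control level. RefSeq windows from 250 bases before to 50 bases after each transcription start (build GRCm38.p6) were matched to 53 of the 84 members by symbol and to all 10 genes of the cluster. The letters TGACTCA, the binding motif of AP-1 (the Jun and Fos transcription factors), were searched on both strands, where the other strand reads TGAGTCA. They were found in 7 of the 10 clustered genes, in 10 of the 53 members and in 5.95% of the 27025 genes with a window. Of the 29 tested members with a window, 4 held them. The tested cluster genes Mmp8 and Mmp27 were also lower but do not hold these letters in their windows. Only windows that hold the letters were printed, so those of Mmp8 and Mmp27 are not shown. Whether the motif bears on the fold changes was not tested. The 5 windows printed here are those of 3 tested genes, Mmp13 (chr9:7272264-7272563), Mmp12 (chr9:7347124-7347423) and Mmp7 (chr9:7691840-7692139), and of 2 neighbours with almost no reads, Mmp3 (chr9:7445572-7445871) and Mmp10 (chr9:7502092-7502391), all on the plus strand, 5′ to 3′, with the AP-1 letters in capitals.
Mmp13: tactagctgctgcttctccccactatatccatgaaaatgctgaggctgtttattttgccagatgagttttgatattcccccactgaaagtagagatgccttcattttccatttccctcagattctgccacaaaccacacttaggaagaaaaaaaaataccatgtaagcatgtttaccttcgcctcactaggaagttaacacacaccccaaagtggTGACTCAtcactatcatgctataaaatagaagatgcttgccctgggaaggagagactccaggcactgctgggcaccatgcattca
Mmp12: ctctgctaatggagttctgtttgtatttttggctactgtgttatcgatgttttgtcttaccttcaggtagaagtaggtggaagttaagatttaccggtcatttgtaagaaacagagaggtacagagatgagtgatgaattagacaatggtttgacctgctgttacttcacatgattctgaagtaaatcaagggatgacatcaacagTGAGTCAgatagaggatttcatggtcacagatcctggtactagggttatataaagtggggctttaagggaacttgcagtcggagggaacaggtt
Mmp7: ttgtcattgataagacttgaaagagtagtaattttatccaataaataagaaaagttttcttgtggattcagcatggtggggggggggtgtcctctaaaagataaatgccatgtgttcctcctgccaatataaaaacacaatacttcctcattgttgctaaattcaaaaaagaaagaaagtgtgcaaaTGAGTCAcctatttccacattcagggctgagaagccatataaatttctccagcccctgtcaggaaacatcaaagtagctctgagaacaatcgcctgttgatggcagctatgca
Mmp3: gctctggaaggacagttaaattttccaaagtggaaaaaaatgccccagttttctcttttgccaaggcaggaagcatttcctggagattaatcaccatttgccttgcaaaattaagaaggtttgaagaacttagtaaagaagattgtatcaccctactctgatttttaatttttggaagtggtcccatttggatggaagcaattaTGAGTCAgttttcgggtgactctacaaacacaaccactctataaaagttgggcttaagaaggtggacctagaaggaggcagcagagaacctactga
Mmp10: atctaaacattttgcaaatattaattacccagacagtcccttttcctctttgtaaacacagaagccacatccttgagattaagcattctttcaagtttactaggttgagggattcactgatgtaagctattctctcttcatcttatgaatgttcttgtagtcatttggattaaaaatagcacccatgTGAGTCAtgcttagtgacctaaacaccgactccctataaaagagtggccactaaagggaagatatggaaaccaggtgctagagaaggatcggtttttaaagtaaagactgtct
The motif begins 35 bases before the start of Mmp13, 44 before that of Mmp12, 63 before that of Mmp7, 46 before that of Mmp3 and 63 before that of Mmp10. Mmp3 had 12 reads and Mmp10 had 6 reads over all 6 libraries, so the same letters stand before genes at very different levels. Mmp1a, Mmp1b and Mmp20 had no read in any library, and the first pair also hold the motif.

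Among the membrane-type enzymes, Mmp14, the membrane-anchored collagenase that activates pro-MMP2, was the highest MMP per kilobase in 4 of the 6 libraries. It was at 69.8, 57.5 and 61.5 CPM in Cyr61 KO livers, against 70.7, 81.6 and 72.9 CPM in Control livers. The groups lay close to each other without overlap, and the log2 fold change of -0.26 ± 0.19 did not pass (edgeR adjusted p = 0.411). Mmp15, another membrane-type enzyme, was at 76.5, 79.9 and 81.2 CPM in Cyr61 KO livers, against 95.7, 44.8 and 90.9 CPM in Control livers, and the log2 fold change, 0.04 ± 0.29, did not pass (edgeR adjusted p = 0.942) and was -0.21 without Control replicate 2. Mmp19, a secreted enzyme found in healthy liver, was at 74.5, 79.2 and 67.1 CPM in Cyr61 KO livers, against 71.6, 33.4 and 64.2 CPM in Control livers (log2 fold change 0.38 ± 0.29, edgeR adjusted p = 0.408). In both genes Control replicate 2 had the lowest value of all libraries. Mmp23 was at 1.63, 2.41 and 2.55 CPM in Cyr61 KO livers, against 4.58, 7.91 and 4.55 CPM in Control livers, and its log2 fold change of -1.37 ± 0.37 did not pass (edgeR adjusted p = 0.0741). Mmp17 was at -0.22 ± 0.47 (edgeR adjusted p = 0.776) and at 0.14 without Control replicate 2. The summed MMP level was 71.0 ± 3.17 RPKM in Cyr61 KO livers and 106.6 ± 16.3 RPKM in Control livers (SD, n = 3 each), with no overlap and an exact two-sided permutation p of 0.1. Mmp12 made up 0.900%, 1.26% and 5.63% of it in the Cyr61 KO libraries, against 13.5%, 13.0% and 10.2% in the Control libraries.

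Among the ADAMs, Adam8, a protease of myeloid cells that cuts adhesion molecules, fell in Cyr61 KO livers. The gene lies at chr7:139978932-139992562. Adam8 was at 0.683, 0.390 and 1.57 CPM in the Cyr61 KO libraries, against 6.18, 11.2 and 3.93 CPM in the Control libraries. No Cyr61 KO library reached the lowest Control library, and the log2 fold change was -2.99 ± 0.59 (SE, edgeR adjusted p = 0.0383). Adam9, a widely expressed sheddase, was the highest ADAM per kilobase in every library but Control replicate 2, where Adam11 was. It was at 92.4, 106.8 and 113.8 CPM in Cyr61 KO livers, against 82.8, 42.8 and 73.8 CPM in Control livers. Its groups did not overlap either, but the log2 fold change of 0.65 ± 0.27 did not pass (edgeR adjusted p = 0.167).

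The sheddases Adam10, which cuts Notch receptors, and Adam17, which releases TNF, had groups that overlapped. Adam10 was at 28.8, 37.7 and 45.6 CPM in Cyr61 KO livers, against 42.2, 50.2 and 34.9 CPM in Control livers (log2 fold change -0.18 ± 0.24, edgeR adjusted p = 0.635). Adam17 was at 19.0, 21.3 and 27.4 CPM in Cyr61 KO livers, against 27.8, 27.6 and 26.2 CPM in Control livers (-0.27 ± 0.20, edgeR adjusted p = 0.409). Adam15, found in endothelial and epithelial cells, was at 6.71, 4.68 and 7.90 CPM in Cyr61 KO livers, against 9.60, 26.8 and 9.83 CPM in Control livers; the log2 fold change of -1.26 ± 0.43 (edgeR adjusted p = 0.111) was -0.57 without Control replicate 2. Adam33, a gene of fibroblasts and smooth muscle, was at -2.08 ± 0.78 (edgeR adjusted p = 0.133) and at -0.55 without that library, where its value was 10.4 CPM against 1.05 and 2.13 CPM in the other Control libraries. Adam12 and Adam19 were at -0.92 ± 0.78 and -0.67 ± 0.64 and did not pass (edgeR adjusted p = 0.470 and 0.518), and Adam19 was at 0.35 without Control replicate 2.

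Adam11, Adam22 and Adam23 lack a working protease site and are best known from neurons. Adam11 was at 38.8, 40.4 and 34.5 CPM in Cyr61 KO livers, against 46.8, 59.3 and 46.3 CPM in Control livers (log2 fold change -0.42 ± 0.20, edgeR adjusted p = 0.199). Adam23 was at 8.70, 8.51 and 20.3 CPM in Cyr61 KO livers, against 6.60, 6.98 and 7.73 CPM in Control livers, and Cyr61 KO replicate 3 was well above the rest (0.82 ± 0.36, edgeR adjusted p = 0.181; 0.29 without that library). Among the remaining ADAM genes, most of which are known from the testis, Adam32 alone was tested, at -2.14 ± 0.97 (edgeR adjusted p = 0.192). The summed ADAM level was 52.6 ± 6.45 RPKM in Cyr61 KO livers and 54.3 ± 5.98 RPKM in Control livers (SD, n = 3 each; exact two-sided permutation p = 0.7). Adam9 held 49.1%, 50.9% and 47.4% of it in the Cyr61 KO libraries, against 38.0%, 17.5% and 37.6% in the Control libraries.

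Among the ADAMTS genes, Adamts2, the protease that removes the amino-terminal propeptide from fibrillar procollagens, fell in Cyr61 KO livers. It lies at chr11:50602084-50807573. Adamts2 was at 9.17, 10.4 and 16.1 CPM in the Cyr61 KO libraries, against 26.2, 36.1 and 26.1 CPM in the Control libraries, with no overlap and a log2 fold change of -1.31 ± 0.27 (SE, edgeR adjusted p = 0.0418). Adamts14 and Adamts3, the other procollagen proteases of the family, were at -0.92 ± 0.50 and -0.51 ± 0.58 and did not pass (edgeR adjusted p = 0.260 and 0.586). The procollagen genes themselves also fell: Col1a1 was at 34.6, 30.8 and 42.0 CPM in Cyr61 KO livers, against 150.1, 252 and 116.6 CPM in Control livers (log2 fold change -2.27 ± 0.32, edgeR adjusted p = 0.0184).

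Adamtsl2, a microfibril-associated protein whose loss in people and mice disturbs TGF-beta signalling, fell as well. The gene lies at chr2:27079379-27108981 and was the highest of its family in every library. Adamtsl2 was at 7.96, 10.5 and 16.2 CPM in the Cyr61 KO libraries, against 36.7, 50.6 and 28.7 CPM in the Control libraries. Cyr61 KO replicate 3 was the highest of its group, as it was for 37 of the 45 tested members, against 39.2% of all genes tested, and it remained below every Control library. The log2 fold change was -1.74 ± 0.32 (SE, edgeR adjusted p = 0.0315). Adamtsl2 held 59.2%, 63.1% and 70.6% of the summed ADAMTS-like level per kilobase in the Cyr61 KO libraries, against 86.5%, 84.7% and 83.0% in the Control libraries. Adamtsl1 and Adamtsl4 were at -1.29 ± 0.52 and -0.17 ± 0.41 and did not pass (edgeR adjusted p = 0.153 and 0.806), and Adamtsl4 was at 0.34 without Control replicate 2.

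Of the 5 tested proteoglycan-cleaving enzymes none was called by edgeR. At an unadjusted p below 0.05, 2 were lower, against 16.1% of all genes tested, and 1, Adamts5, was called lower by DESeq2. Adamts5, which cuts aggrecan and versican, was at 2.41, 4.15 and 4.01 CPM in Cyr61 KO livers, against 9.01, 20.7 and 8.07 CPM in Control livers. The groups did not overlap, and the log2 fold change of -1.84 ± 0.42 missed the threshold (edgeR adjusted p = 0.0512). Adamts9 was at -1.31 ± 0.49 (edgeR adjusted p = 0.135). Adamts1, a versican-cleaving enzyme of stroma and endothelium, was at 9.68, 16.4 and 19.3 CPM in Cyr61 KO livers, against 28.0, 19.4 and 17.4 CPM in Control livers, and the groups overlapped (-0.51 ± 0.30, edgeR adjusted p = 0.292). Adamts13, the von Willebrand factor-cleaving protease made by hepatic stellate cells, was at 3.80, 4.93 and 5.80 CPM in Cyr61 KO livers, against 3.03, 2.99 and 4.21 CPM in Control livers (0.51 ± 0.32, edgeR adjusted p = 0.332). Adamts7, which cuts COMP, was at 14.8, 11.1 and 8.55 CPM in Cyr61 KO livers, against 7.66, 7.33 and 5.54 CPM in Control livers, without overlap (0.74 ± 0.28, edgeR adjusted p = 0.133), and Adamts12 was at -0.32 ± 0.66 (0.773) and at 0.14 without Cyr61 KO replicate 1. Adamts10, which binds fibrillin microfibrils, was at -1.77 ± 0.63 (edgeR adjusted p = 0.119) and at -0.61 without Control replicate 2. Adamts6 was at 0.65 ± 0.66 (edgeR adjusted p = 0.545).

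The levels per kilobase, which allow genes of different length to be set side by side, spread over more than 2 orders of magnitude among the tested members. In Cyr61 KO livers the highest were Adam9 at 25.8 ± 2.71, Mmp14 at 24.2 ± 2.42, Mmp19 at 21.6 ± 1.80 and Mmp15 at 15.4 ± 0.473 RPKM (SD, n = 3 each). In Control livers the same genes were at 16.4 ± 5.19, 28.9 ± 2.23, 16.6 ± 5.96 and 15.02 ± 5.47 RPKM, and Timp2 at 16.4 ± 5.24 RPKM stood among them, against 8.10 ± 2.42 RPKM in Cyr61 KO livers. Adam9, Mmp19, Mmp15 and Timp2 did not differ in level beyond their spread in Control livers. None of these abundant genes passed the edgeR test between the groups, and DESeq2 called Timp2 lower (adjusted p = 0.0264). The 5 called members had lower means than these genes in both groups. In Cyr61 KO livers they ranged from 0.283 ± 0.197 RPKM for Adam8 to 3.64 ± 1.13 RPKM for Mmp2. In Control livers the range was 2.28 ± 1.19 RPKM for Adam8 to 10.7 ± 3.08 RPKM for Adamtsl2. Mmp7 and Mmp12, which edgeR did not call, were at 14.7 ± 18.8 and 13.2 ± 3.46 RPKM in Control livers. Their Cyr61 KO levels were 0.764 ± 0.765 and 1.89 ± 1.99 RPKM.

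**Figure D4:**
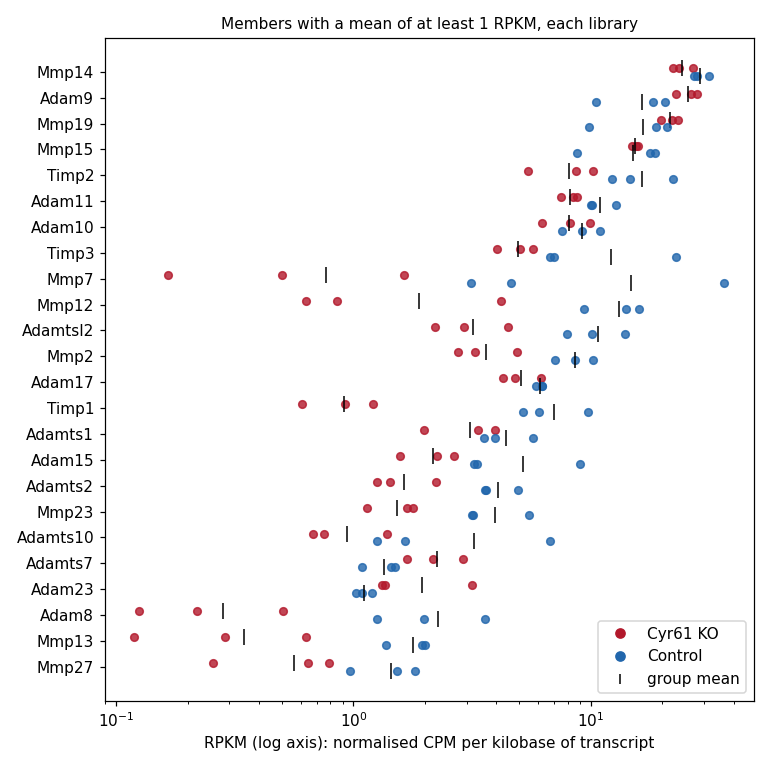
RPKM on a log axis for the members with a mean of at least 1 RPKM over the 6 libraries, with the 3 Cyr61 KO libraries drawn above the 3 Control libraries of each gene and a tick at each group mean. The most abundant members, such as Mmp14 and Mmp15, have overlapping or adjoining groups, while Timp1, Mmp12, Adam8 and Mmp13 are separated by a wide gap.

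Of the 39 members that were not tested, 21 had no read in any library. By counting error alone this allows at most 0.0743 to 0.143 CPM per library, here scaled to library size without TMM normalisation. The members without reads were Mmp1a, Mmp1b, Mmp20, Mmp21, Adamts18, Adamts19, Adamts20 and 14 ADAM genes, most of the latter known from the testis. The other 18 had between 1 and 73 reads over the 6 libraries: Timp4, Mmp3, Mmp10, Mmp16, Mmp24, Mmp25, Mmp28, Adam1a, Adam2, Adam4, Adam5, Adam6b, Adam21, Adam22, Adam28, Adamts8, Adamts16 and Adamts17. Of these, Adam22 had 6, 2 and 3 reads in the Cyr61 KO libraries, against 8, 31 and 8 in the Control libraries. Adamts16 had 3, 4 and 7 reads in the Cyr61 KO libraries, against 9, 44 and 5 in the Control libraries, so that Control replicate 2 held most reads of both genes.

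Markers of other cells also differed between the groups. For comparison, 2.37% of all genes tested were called lower by edgeR and 1.07% higher. At an unadjusted p below 0.05, 16.1% of all genes tested were lower. Spp1 is in both the macrophage and the cholangiocyte list. Col1a1, Col1a2 and Col3a1 are stellate cell and fibroblast markers here and also belong to the related genes below. Of 10 markers of monocyte-derived macrophages 6 were called lower, and they summed to 218, 159.7 and 407.5 CPM in Cyr61 KO livers, against 1035, 2077 and 732 CPM in Control livers. Of 10 stellate cell and fibroblast markers 6 were called lower, with sums of 231, 272 and 357 CPM in Cyr61 KO livers, against 716, 1157 and 626 CPM in Control livers. Neutrophil markers, of which 2 of 5 were called lower, summed to 4.31, 2.55 and 7.09 CPM in Cyr61 KO livers, against 15.97, 69.0 and 25.7 CPM in Control livers. No marker of these lists was at 0 in any library, and the part of these cells in the values of Timp1, Mmp2, Mmp12, Adam8, Adamts2 and Adamtsl2 was not tested. In other lists, 2 of 7 endothelial markers, Kdr and Clec4g, and 1 of 6 Kupffer cell markers, Cd163, were called higher. The median log2 fold changes of these lists were 0.33 and 0.03. Of 7 T and NK cell markers edgeR called 0, with 6 lower at an unadjusted p below 0.05 and 5 called lower by DESeq2. For B and plasma cells 1 of 5 markers, Jchain, was called lower. Cyr61 KO replicate 3 had the highest sum of its group in the macrophage, stellate cell and neutrophil lists, and Control replicate 2 the highest of the Control libraries.

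The calls of single members depended on which libraries were kept, while the signs of the 5 called members did not. Mmp2, Adam8, Adamts2 and Adamtsl2 each passed without Cyr61 KO replicate 3 and without Control replicate 3. None of the 4 passed without Cyr61 KO replicate 1, Cyr61 KO replicate 2, Control replicate 1 or Control replicate 2, at edgeR adjusted p of 0.0787 to 0.201 for Mmp2, 0.0587 to 0.1345 for Adam8, 0.0650 to 0.1855 for Adamts2 and 0.0530 to 0.137 for Adamtsl2. Their log2 fold changes over the 6 fits with 1 library left out ran from -1.51 to -1.06 for Mmp2, from -3.69 to -2.48 for Adam8, from -1.58 to -1.11 for Adamts2 and from -2.05 to -1.48 for Adamtsl2. Timp1 ran from -3.17 to -2.59 and was called in 4 of the 6 fits. Without Control replicate 3, Adamts5, Adamts10, Adam33, Mmp7, Mmp12 and Mmp13 were also called lower, at edgeR adjusted p of 0.0272, 0.0481, 0.0452, 0.0248, 0.0348 and 0.0458.

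**Figure D5:**
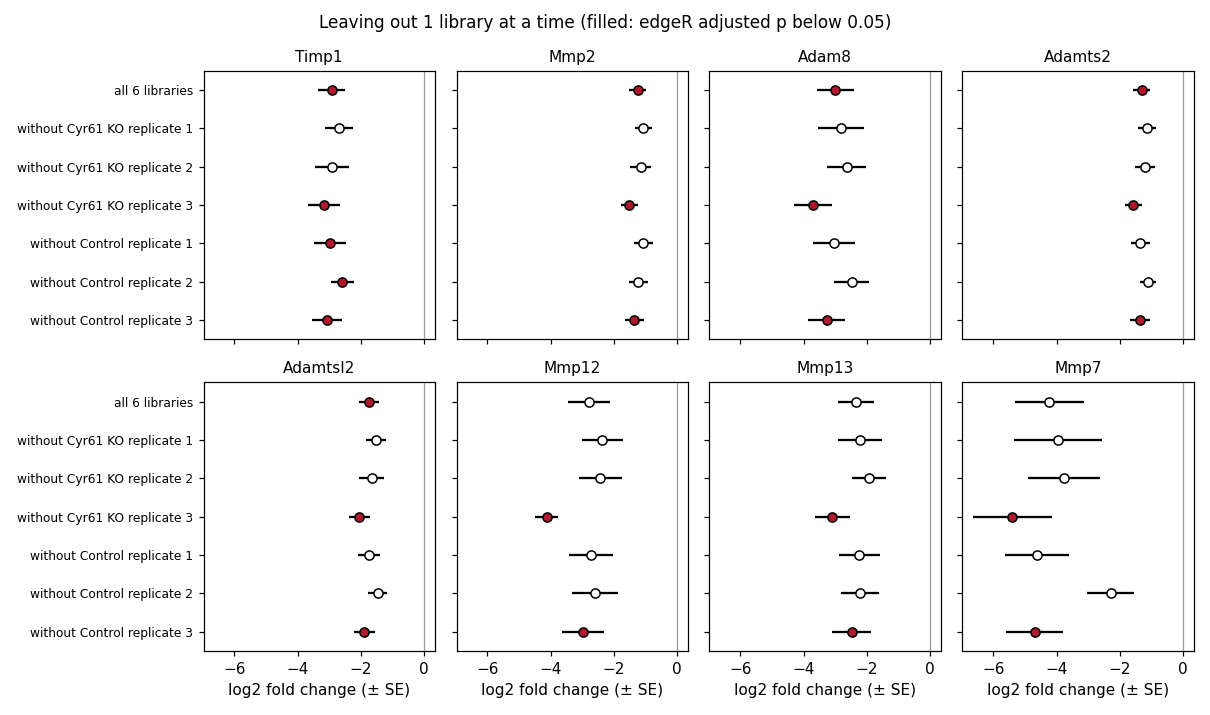
Log2 fold change of Cyr61 KO over Control (horizontal axis, bars of 1 standard error) for 8 members in the fit to all 6 libraries and in the 6 fits that leave out 1 library each, filled where the edgeR adjusted p is below 0.05. Timp1 is filled in 5 of its 7 fits, and Mmp7 moves from -4.23 to -2.29 when Control replicate 2 is left out.

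Genes that work with these enzymes were read from a list of 71 symbols, of which 55 were tested. In Cyr61 KO livers 13 of the 55 were called lower (23.6%) by edgeR, against 2.37% of all genes tested, and 0 higher, against 1.07%, where 4 had an unadjusted p below 0.05 in the higher direction and DESeq2 called 1. Of the 13, Areg, Fbn2 and Prtn3 did not meet the count minimum in all 3 Cyr61 KO libraries and entered the test through their Control level. The median log2 fold change was -0.68. In the plasminogen system, whose product plasmin activates several pro-MMPs, Plau fell. Plau, the urokinase gene, was at 2.55, 2.02 and 4.29 CPM in Cyr61 KO livers, against 13.0, 14.5 and 9.0 CPM in Control livers (-2.04 ± 0.35, edgeR adjusted p = 0.0277). Every Cyr61 KO library was below every Control library.

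Among the other matrix-degrading proteases 4 of 7 tested genes were called lower: Ctss, Ctsk, Prtn3 and, named here beyond the rule of 12 genes, Htra1. Ctss, a macrophage cathepsin that cuts elastin, was at 60.2, 38.6 and 87.8 CPM in Cyr61 KO livers, against 263.5, 382 and 205 CPM in Control livers (-2.19 ± 0.37, edgeR adjusted p = 0.0272). Ctsk, a collagen-cutting cathepsin, and Prtn3, a neutrophil serine protease, had log2 fold changes of -2.44 and -4.73 (edgeR adjusted p = 0.0365 and 0.0458). Control replicate 3 had 11.7 CPM of Prtn3, well above Control replicates 1 and 2 with 0.927 and 1.55 CPM. Of 15 tested proteins shed by ADAM17, 3 were called lower: Areg, an EGF receptor ligand, was at -2.75, Cx3cl1, a membrane-bound chemokine, at -2.27 and Vcam1, an adhesion molecule, at -1.70 (log2 fold changes, edgeR adjusted p = 0.0303, 0.0445 and 0.0300). Of 9 tested substrates of ADAMTS enzymes and modifiers of their repeats 4 were called lower: the 3 fibrillar collagen genes Col1a1, Col1a2 and Col3a1, and Fbn2, a fibrillin, which had 0, 0 and 3 reads in Cyr61 KO livers, against 48, 103 and 30 reads in Control livers. Col1a2 and Col3a1 had log2 fold changes of -1.67 and -1.78 (edgeR adjusted p = 0.0272 and 0.0329).

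The activators, inhibitors and clearance receptors of metalloproteinases had a median of 0.48. Of 9 tested, edgeR called 0, and 3 were higher at an unadjusted p below 0.05, against 11.3% of all genes tested. DESeq2 called 1 of them higher. Pcsk6, a proprotein convertase, was at 138, 178 and 169 CPM in Cyr61 KO livers, against 96.2, 33.7 and 98.1 CPM in Control livers (1.09 ± 0.39, edgeR adjusted p = 0.120). Of 8 tested regulators of ADAM10 and ADAM17 edgeR called 0. At an unadjusted p below 0.05, 2 were lower, against 16.1% of all genes tested, and DESeq2 called 1 lower. Tspan15, a partner of ADAM10, was at -1.26 ± 0.37 (edgeR adjusted p = 0.0834). In the whole list edgeR called 7 genes lower without Control replicate 2 and 4 without Control replicate 1. Of all genes, 1.22% and 0.949% were called lower in those fits. It called 17 without Cyr61 KO replicate 3 and 15 without Control replicate 3, where the shares of all genes were 4.35% and 5.17%. With Cyr61 KO replicate 1 or 2 left out it called 0, where the shares were 0.0215% and 0.086%. In each of these last fits 18 genes of the list were lower at an unadjusted p below 0.05, a threshold at which the share of all genes was not computed.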

How the data were processed

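Bulk RNA of frozen mouse liver was sequenced in 6 libraries made with a directional kit, per the labels. The deposited values are the authors' read counts for each gene symbol, with a file for each library. Trimmomatic 0.38, STAR 2.6.1a and the builds hg38 and mm10 are named in the submitters' processing notes, and the annotation is not given in the sources used here. The strand column that fits the kit was used, since the opposite strand held 0.928% to 1.35% of stranded counts. Reads outside genes, in several genes or at several positions stayed out of library sizes and tests. Differences were tested by edgeR 4.0.16 under R 4.3.3 (two-sided quasi-likelihood F test, group term, filterByExpr with minimum counts of 10 and 15, TMM), with Benjamini-Hochberg adjustment over all 13563 genes tested and 0.05 as threshold. Each SE was obtained by dividing the size of the log2 fold change by the root of its F statistic.

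The members, lists and named-gene rule were chosen with earlier results of these data known. The rule takes Cyr61, called members, the TIMPs, in each role group the 2 tested members with the smallest p and the 2 with the highest level per length, and up to 12 called related genes, of which 1 is not reported here; Adam12, Adam17, Adam19, Adam33 and Adamts3 were added after their values were seen. Positions and transcript lengths (the longest principal transcript) were read from GENCODE M21 for GRCm38, which corresponds to mm10; all 84 members were placed. Alternatives were DESeq2 1.42.0, DESeq2 size factors, library totals, other count filters, unstranded counts, a replicate block and leaving out each library. Scripts were tested on simulated counts. Over 5 simulations with 200 changed genes each, false calls averaged 37.8 for DESeq2 and 6.2 for edgeR. DESeq2 recovered 31.6% of 2-fold and 82.8% of 4-fold changes, and edgeR 13.2% and 74.4%. No 2 libraries agreed within sampling noise.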

Additional observations from a re-analysis of the deposited data

How the results depend on the processing

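Against 5 of 45 members called lower, DESeq2 called 17 of the 63 members with an unadjusted p. It ran without the count filter of edgeR but with its own filter on mean counts. EdgeR without that count filter called 9 of 63, and the replicate block 9 of 45, each time, as with DESeq2, with the 5 called members among them. All genes called numbered 2261 by DESeq2, 944 without the filter and 633 with the block, against 467. Of all genes tested in each fit, 7.93% were called lower by DESeq2 and 3.72% without the filter. With the block 3.47% were called lower, against 2.37% in the main fit. The DESeq2 setting changed the tool and the filter together, and it also called 1 related gene higher. With library totals as the only scaling 0 members were called by edgeR (22 were lower at an unadjusted p below 0.05), 0 related genes (26 lower at an unadjusted p below 0.05) and 50 genes in all, at a member median of -1.25 where the median of all genes was -0.30. Increases made up 54% of all calls in that setting, against 31% with TMM. The cause of these differences was not tested. With 1 library left out, members called lower ranged from 0 to 11, members called higher from 0 to 0, related genes called lower from 0 to 17 and higher from 0 to 0, all genes called from 7 to 878, and the member median from -1.16 to -0.54. Cyr61 ranged from -3.19 to -2.73 and did not pass without Cyr61 KO replicate 1 (edgeR adjusted p = 0.0615). Of 577 repeats for single tested members 515 gave the same call and direction, 23 lost a call, 30 gained one and 9 changed sign, none of them called in either fit. With library totals Adamts4 was at -0.15 and Mmp15 at -0.16, and with the replicate block Adamts4 was at -0.13. With 1 library left out, Adamts4 ranged from -0.54 to 0.52, Adam19 from -0.98 to 0.35, Adamts12 from -0.84 to 0.14, Adamtsl4 from -0.35 to 0.34, Mmp17 from -0.40 to 0.14 and Mmp15 from -0.21 to 0.26.

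Libraries with the same replicate number did not deviate together (correlations of -0.08, -0.23 and -0.45). Deviations were taken from the mean of each group, so the correlations depend on each other and cannot show that the numbers carry no pairing. The replicate block, with 9 members called lower, changed no call among the 5 and added Adamts5, Mmp7, Mmp12 and Mmp13. Low counts limit Mmp8, Adam32 and the 18 members with few reads.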

Other observations

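Relatives whose symbols fall outside the pattern gave a mixed picture. Adamdec1, a soluble ADAM-like protease of macrophages and dendritic cells, was at 1.90, 0.993 and 2.52 CPM in Cyr61 KO livers, against 2.86, 4.65 and 2.85 CPM in Control livers, without overlap (log2 fold change -0.93 ± 0.45, edgeR adjusted p = 0.210). Thsd4, an ADAMTS-like protein of microfibrils, was at 1.04, 2.87 and 3.28 CPM in Cyr61 KO livers, against 2.36, 8.05 and 1.79 CPM in Control livers (-0.76 ± 0.64, edgeR adjusted p = 0.466). Papln, which encodes papilin, a relative of the ADAMTS-like proteins, was at 2.32, 4.86 and 4.15 CPM in Cyr61 KO livers, against 1.52, 1.10 and 2.29 CPM in Control livers (1.20 ± 0.44, edgeR adjusted p = 0.129). None of the 3 passed, and they were chosen by name.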
